A study of Mus musculus with 56 samples.

Results

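S100a8, with the 6 other S100 genes spotted on the array, was followed through oleic acid (OA) lung injury in the mouse. A spot was a member where its gene symbol was S100a8 or otherwise began with S100. This rule found 9 spots of 7 genes (S100a8, S100a9, S100a4, S100a5, S100a6, S100a10 and S100g) among the 9984 spots of the array, of which 7625 carry a named clone. S100a6 and S100g have 2 clones each. S100a8 itself was singled out because it led the clones that were highest early after OA, so its course over time in OA mice is given as a description without a test, whereas the other members entered by name.

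All mice were 7-week-old C57BL/6J females, anesthetized with xylazine and ketamine and injected in the tail vein. A total of 27 mice received OA, a fatty acid that injures the lung when given in the blood, and 8 received physiological serum. OA lungs were taken from groups of 4, 6, 7, 4, 3 and 3 mice killed 1, 1.5, 3, 4, 18 and 24 hours after the injection, and these times form an early (10 mice, 1 and 1.5 hours), an intermediate (11 mice, 3 and 4 hours) and a late (6 mice, 18 and 24 hours) stage. The serum groups held 2, 1, 2, 2 and 1 mice killed after 1, 1.5, 3, 18 and 24 hours, with none at 4 hours. RNA of the smallest lung was hybridized on 60 MUSV29K nylon cDNA microarrays, 51 of OA mice and 9 of serum mice. Levels are log2 intensities averaged over the arrays of a mouse, so that n counts mice, and a difference of 1 is a doubling. Whole lung was measured, so fewer cells of a type and less RNA per cell cannot be told apart.

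S100 proteins are small calcium-binding proteins of the EF-hand type that act inside the cell on partners such as annexins, and some of them are released. S100a8 and S100a9 pair to form calprotectin, which fills the cytoplasm of neutrophils and of some monocytes, binds metal ions and, once released, signals through Tlr4 and the receptor for advanced glycation end products. The remaining members have other homes: S100a4 in motile mesenchymal cells and leukocytes, S100a6 in fibroblasts and epithelium, S100a10 as the partner of Anxa2 at the membrane, and S100g as a calcium carrier of absorptive epithelium.

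In the RefSeq table of the mouse assembly GRCm38.p6, S100a8 and S100a9 are next to each other on chromosome 3, as are S100a4, S100a5 and S100a6 in that order, while S100g is on chromosome X. The array files name no genome build, so no position of a clone is given. The 250 bases before the RefSeq start of S100a8 (chr3:90668821-90669070, plus strand) and of S100a9 (chr3:90695722-90695971, minus strand) are shown because these were the members whose levels moved together. They are written 5′ to 3′ on the strand of the gene, and capitals mark every match, on either strand, to 4 short motifs.

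S100a8: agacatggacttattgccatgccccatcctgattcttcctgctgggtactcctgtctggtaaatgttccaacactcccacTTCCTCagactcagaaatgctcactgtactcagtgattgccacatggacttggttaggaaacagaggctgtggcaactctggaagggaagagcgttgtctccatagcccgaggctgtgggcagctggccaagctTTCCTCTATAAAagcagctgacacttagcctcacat

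S100a9: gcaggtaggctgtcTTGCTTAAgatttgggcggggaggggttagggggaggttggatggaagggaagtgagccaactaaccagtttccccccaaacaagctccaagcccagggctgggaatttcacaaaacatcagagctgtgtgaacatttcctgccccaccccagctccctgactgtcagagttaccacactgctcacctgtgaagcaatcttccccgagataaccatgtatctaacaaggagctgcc

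The motifs searched on both strands were TATAAA, a core promoter element that places the start of transcription, and the binding motifs TTGCNNAA of C/EBP factors, GAGGAA of PU.1 and TGANTCA of AP-1. S100a8 held TATAAA 30 bases before its start, and GAGGAA, read on the opposite strand as TTCCTC, 170 and 36 bases before it, the nearer of which runs directly into TATAAA without overlap. S100a9 held 1 match to TTGCNNAA, 236 bases before its start. Neither held TGANTCA. Among 32851 mouse promoters of the same length, 12.4% held TATAAA, 9.56% TTGCNNAA, 23.3% GAGGAA and 6.75% TGANTCA. The pair thus shared none of the 4 motifs in these windows. A match is a string of letters and not a measured binding site.

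Before the results, 4 facts about the arrays bear on them. A 1.5 hours OA array whose mouse could not be resolved from its label was left out, and 1 array of the mouse P7L3 with conflicting time labels was kept at 3 hours. The number after L in the names of OA mice, called the lot here, has no stated meaning, and all 6 late mice carry lot 1 while no early mouse does. The serum arrays were dimmer (median log2 intensity 5.73 to 8.39, against 6.75 to 9.36 on OA arrays), and all 9 of their files have another column layout than the 51 OA files, so treatment and the way the files were made cannot be told apart. The clones of S100a4 and S100a5 were dim, with mean levels of 7.96 and 7.98 in OA mice, below 8.95, the 95th percentile of spots without a gene name, whereas the other 7 clones lay above it.

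S100a8 was high in most mice in the first 4 hours after OA and low at 18 and 24 hours. At 1 hour the 4 mice had levels of 14.27, 12.44, 11.27 and 10.83. The highest of these, mouse P3L2, stood apart from all other mice. At 1.5 hours the 6 mice ranged from 10.84 to 12.55 with a median of 11.90, and at 3 hours the 7 mice ranged from 11.10 to 12.66 with a median of 12.28. At 4 hours the levels were 12.24, 11.80, 11.64 and 10.65. The late mice had the lowest levels, 10.60, 10.45 and 9.98 at 18 hours and 11.32, 10.95 and 9.64 at 24 hours. Some overlap remained, because 2 of the 24 hours mice lay above the lowest mice of the early and intermediate stages.

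Ordered by their mean S100a8 level, the time points ran 1, 3, 1.5, 4, 24 and 18 hours. The means in that order were 12.20 ± 1.53 (SD, 4 mice), 12.12 ± 0.53 (7 mice), 11.86 ± 0.60 (6 mice), 11.58 ± 0.67 (4 mice), 10.63 ± 0.88 (3 mice) and 10.34 ± 0.32 (3 mice). The SD within time points was 0.81, and the one step between neighbours in this order that exceeded it was that from 4 to 24 hours, 0.95. By stage, late minus early was -1.51 ± 0.38 (SE), late minus intermediate -1.44 ± 0.37 and intermediate minus early -0.07 ± 0.32. Within lot 1, the only lot with late mice, S100a8 averaged 12.06 ± 0.41 (SD, n = 3) in intermediate and 10.49 ± 0.62 (n = 6) in late mice. Without P3L2 late minus early was -1.26, the smallest difference found when any 1 mouse was left out.

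The level of a mouse was repeatable. Over the 23 OA mice hybridized on 2 arrays, the SD between arrays of a mouse was 0.36 for S100a8 against 0.98 between mice, and 0.17 against 0.83 for S100a9. The largest gap between arrays of a mouse for S100a8, 1.15, was in mouse P6L1 at 24 hours. In P3L2 the intensity of S100a8 reached 21207, just under 21815, which was the highest intensity on 52 of the 60 arrays.

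S100a9, the calprotectin partner, was also lowest at 18 and 24 hours by its means. The 4 mice at 1 hour had levels of 14.07, 12.43, 11.63 and 11.51, again with P3L2 on top. At 1.5 hours the 6 mice ranged from 11.46 to 12.42 with a median of 11.91, and at 3 hours the 7 mice ranged from 11.81 to 13.66 with a median of 12.73. At 4 hours the levels were 12.73, 12.50, 12.29 and 10.84. At 18 hours they were 11.47, 11.10 and 10.82, and at 24 hours 12.06, 11.73 and 10.52. The 3 hours group held the highest mean, 12.71 ± 0.58 (SD, n = 7), and 18 hours the lowest, 11.13 ± 0.33 (n = 3). No step between neighbours in the order of means exceeded the SD within time points, 0.71.

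The difference of S100a9 between stages did not pass the test across all clones (limma F test, adjusted p = 0.071). Late minus intermediate was -1.20 ± 0.34 (SE, adjusted p = 0.051, limma contrast), and late minus early -0.80 ± 0.35 (adjusted p = 0.18). One mouse decided this call: without P3L2 the adjusted p of the F test was 0.030, and without P12L3, the lowest 4 hours mouse, it was 0.023. Within lot 1, S100a9 averaged 12.85 ± 0.70 (SD, n = 3) in intermediate and 11.28 ± 0.58 (n = 6) in late mice. The level of S100a9 minus that of S100a8 in the same mouse was 0.01 ± 0.39 (SD, n = 6) at 1.5 hours and 0.80 ± 0.07 (n = 3) at 24 hours, which compares the course of both clones and not their amounts.

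**Figure D1:**
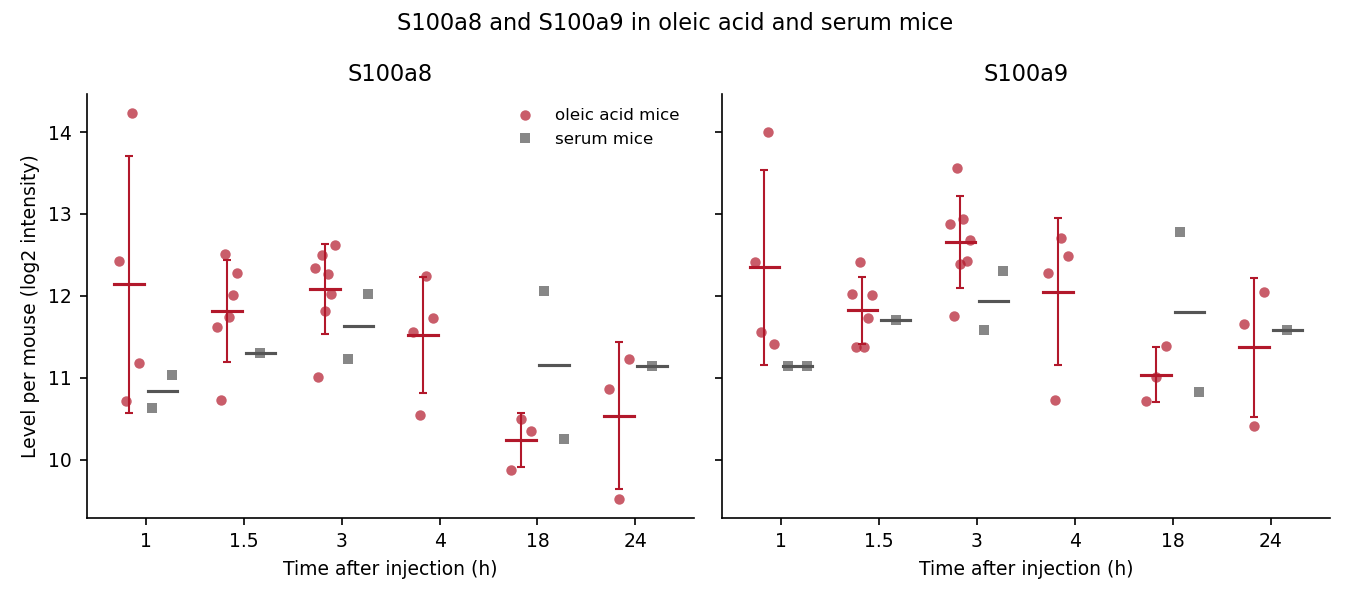
Levels of S100a8 and S100a9 (log2 intensity, all arrays normalized together) against hours after injection, with 1 point per mouse, OA mice as circles and serum mice as squares; horizontal lines are means and error bars are SDs for groups of 3 or more mice. The OA means of S100a8 lie above the serum means from 1 to 3 hours and below them at 18 and 24 hours, and the serum mice at 18 hours lie at 10.25 and 12.06.

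Against serum, S100a8 was not called different on average. With all arrays normalized together, the 8 serum mice had S100a8 levels of 10.63 and 11.04 (1 hour), 11.30 (1.5 hours), 11.23 and 12.02 (3 hours), 12.06 and 10.25 (18 hours) and 11.14 (24 hours). The 2 serum mice at 18 hours thus spanned the full serum range. Averaged over the 5 shared time points, OA minus serum was 0.15 for S100a8 (95% interval -0.54 to 0.84, limma adjusted p = 0.71), a mean that does not use the differences between stages by which S100a8 was chosen but rests on the same OA mice. For S100a9 it was 0.21 (-0.40 to 0.83, adjusted p = 0.56). These values fell to -0.41 and -0.42 when arrays were centred on their medians instead of quantile-normalized.

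For S100a8, OA minus serum after 1, 1.5, 3, 18 and 24 hours took the values 1.31 ± 0.67 (SE), 0.52 ± 0.83, 0.46 ± 0.62, -0.92 ± 0.71 and -0.60 ± 0.89, positive early and negative late. For S100a9 the values were 1.20 ± 0.60, 0.12 ± 0.75, 0.72 ± 0.56, -0.76 ± 0.63 and -0.22 ± 0.80, and the adjusted p of these 5 contrasts ranged from 0.13 to 0.94. At 1.5 and 24 hours there was 1 serum mouse, which the fit assumes to vary like the other groups. The stage difference of OA minus serum was not called for S100a9 (limma F test, adjusted p = 0.74), nor for any of the 8 clones tested, of which 1 had an unadjusted p under 0.05 (S100a4). Over all clones, 4 were called (0.0525%) and 706 had an unadjusted p under 0.05.

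A late fall was not detected in serum mice. Late minus early in serum mice was 0.08 for S100a8 (95% interval -1.29 to 1.45, adjusted p = 0.98) and 0.27 for S100a9 (-0.96 to 1.5, adjusted p = 0.94), and the OA mice had -1.59 and -0.88 on the same scale. The interval of S100a9 includes its OA value. For S100a8 the OA value is part of the course by which the gene was chosen, so no such comparison is drawn. None of the 9 clones was called between late and early serum mice by limma, none had an unadjusted p under 0.05, and over all clones 0.42% were called. In serum mice, as in OA mice, S100a9 followed S100a8 (r = 0.96 over 8 mice, given as a description).

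**Figure D2:**
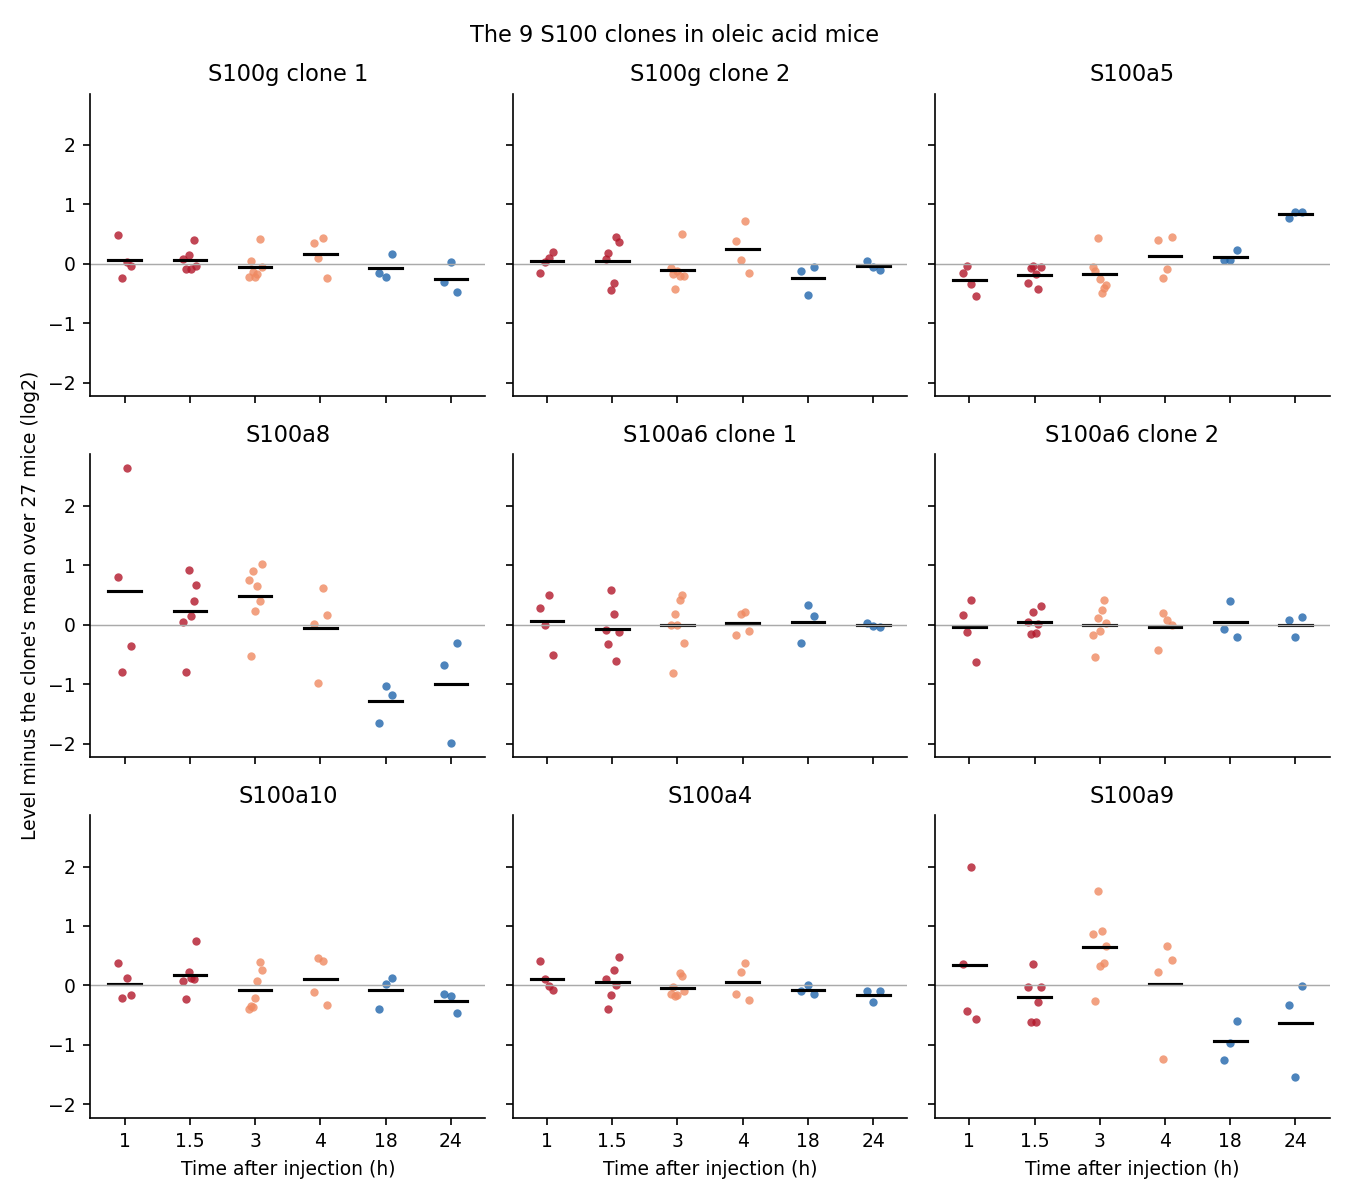
Level of each S100 clone minus its own mean over the 27 OA mice (log2), against hours after injection, with 1 point per mouse coloured by stage (early, intermediate and late from red to blue) and a black line at the mean of each time point. S100a8 and S100a9 spread widely and fall late, S100a5 rises at 24 hours, and the other 6 clones stay within about the spread of their mice.

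S100a5, found mainly in olfactory neurons, was the 1 clone of the 8 tested that was called between stages (limma F test, adjusted p = 0.016) and between time points (adjusted p = 0.0041). Over all clones, 6.16% were called between stages and 2.01% between time points. The 24 hours mice had levels of 8.86, 8.85 and 8.76, above all other OA mice, of which the highest had 8.44. The 18 hours mice had 8.21, 8.05 and 8.05, within the range of the 4 hours mice (7.74 to 8.44). The late mean was higher than the early mean by 0.70 ± 0.15 (SE, adjusted p = 0.023) and than the intermediate mean by 0.55 ± 0.15 (adjusted p = 0.042). The serum mouse at 24 hours also stood high, at 8.69 on the joint scale against 7.50 to 7.91 in the other 7 serum mice. With lot as a block the late minus early difference was 0.33 and was no longer called (adjusted p = 0.82). Within lot 1 the clone averaged 8.20 ± 0.40 (SD, n = 3) in intermediate and 8.46 ± 0.40 (n = 6) in late mice, and leaving out either of 2 of the 24 hours mice, P7L1 or P8L1, also ended the call (adjusted p = 0.056 and 0.058).

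The other 6 clones did not pass the test between stages, with adjusted p between 0.40 and 0.99. The 2 clones of S100a6 had late minus early differences of 0.04 and 0.01, and those of S100g -0.23 and -0.18. S100a10 differed by -0.29 ± 0.15 (SE) and S100a4 by -0.19 ± 0.11. The 2 clones of a gene varied together over the 27 OA mice, with r = 0.71 for S100a6 and r = 0.53 for S100g.

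The clones called higher in OA than in serum mice were those of S100a4, S100a6 and S100g. Averaged over the shared time points, 5 of 9 clones were called higher and none lower (limma contrast), where 34.3% of all clones were called higher and 27.3% lower. With so many clones called, a call here sets a member little apart from the rest of the array. Among all clones the median difference was 0.05.

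S100a4 had the largest difference of the family, 0.77 ± 0.09 (SE, 95% interval 0.58 to 0.96, adjusted p = 5.4e-08). On the joint scale the 27 OA mice lay between 7.48 and 8.35 and the 8 serum mice between 6.72 and 7.41. How many other clones keep the groups apart in this way was not counted. In order of time, the OA minus serum differences were 0.76, 1.00, 1.09, 0.52 and 0.47. It was called at 1, 1.5, 3 and 18 hours (adjusted p = 0.0028, 0.0045, 1.5e-05 and 0.045) and not at 24 hours (adjusted p = 0.18). The shares of all clones called higher at these 5 times were 16.6%, 9.46%, 23.7%, 16.4% and 14.5%. S100a4 stayed called under each of the other quantifications and scalings tried, with differences from 0.81 to 0.95. The clone is nevertheless dim, on the joint scale below 8.86, the level of the brightest 5% of spots without a gene name, and carried the quality mark 1 on 58.3% of arrays.

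S100a6 was higher in OA mice by 0.61 ± 0.13 (SE, adjusted p = 1.9e-04) and 0.47 ± 0.16 (adjusted p = 0.011) in its 2 clones, but with median centring the same differences were -0.15 and -0.20 and neither was called. S100g, whose clones lay 0.34 ± 0.10 (adjusted p = 0.0040) and 0.29 ± 0.12 (adjusted p = 0.035) above serum, kept its direction with median centring (0.11 and 0.08) and lost both calls. S100a10 (-0.01, 95% interval -0.28 to 0.26) and S100a5 (0.06, -0.15 to 0.27) were not called. Apart from S100a4, 1 clone was called higher at 1.5 hours (S100g, 0.84, adjusted p = 0.023) and 1 at 18 hours (S100a6, 0.86, adjusted p = 0.017), and none lower at any of the 5 times, where 13.4%, 4.66%, 16.3%, 12.8% and 7.87% of all clones were called lower.

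**Figure D3:**
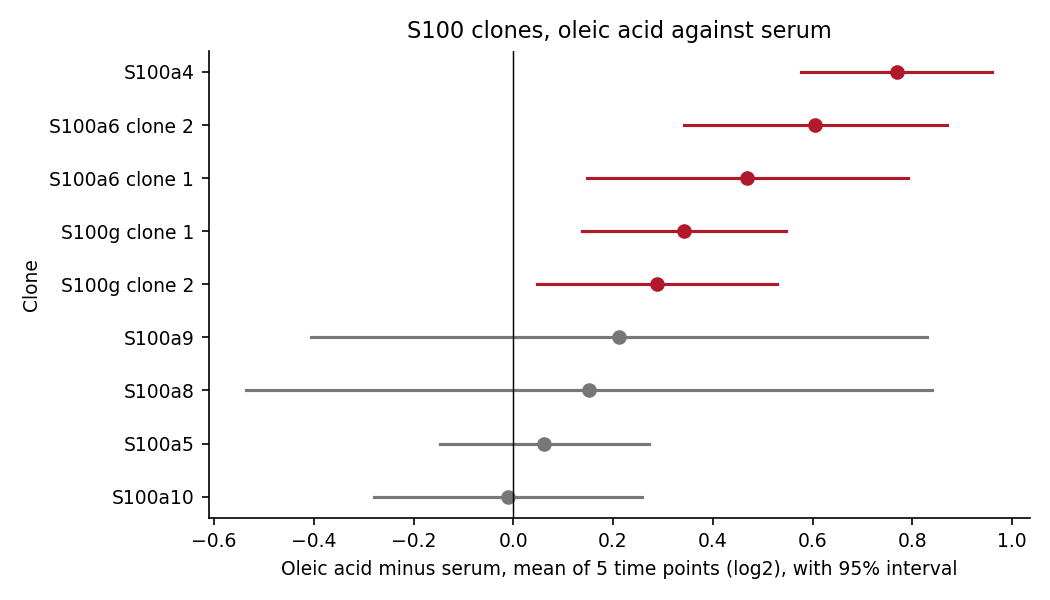
OA minus serum for each S100 clone, averaged over the 5 shared time points (log2, horizontal axis), with 95% intervals from limma; clones called at an adjusted p of 5% are red. S100a4 lies at 0.77, and the intervals of S100a8, S100a9, S100a5 and S100a10 include 0.

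Of 2788 other clones above the level of unnamed spots, S100a9 was the most like S100a8 over the 27 OA mice (r = 0.91). It stayed so after the mean of each time point was removed (r = 0.91) and without P3L2 (r = 0.88). No other member came near it: r was 0.41 and 0.34 for S100a6, 0.33 for S100a10, 0.28 for S100a4, 0.21 and 0.08 for S100g and -0.42 for S100a5. These correlations are descriptions, since S100a8 was chosen for its course and the mice share time points and arrays.

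Outside the family and among the clones above the level of unnamed spots, the 10 genes most like S100a8, each by its clone of highest r, were Trim61 (r = 0.85), Rgs2 (0.80), Rps6ka4 (0.79), Fcer1g (0.78), Eif1 (0.76), Alox5ap (0.75), Errfi1 (0.73), Dusp1 (0.72), Akap12 (0.70) and Fxyd5 (0.69). Fcer1g encodes the signalling chain of Fc receptors in myeloid cells, and Alox5ap the activating protein of 5-lipoxygenase in leukotriene synthesis. Rgs2 limits G protein signalling, Dusp1 dephosphorylates MAP kinases, Errfi1 restrains the EGF receptor, Akap12 anchors protein kinase A, and Rps6ka4 is a kinase downstream of MAP kinases. Eif1 acts in translation initiation and Fxyd5 regulates the sodium pump. P3L2 had the highest value of 6 of the 10 genes, for example 10.86 for Trim61 and 12.40 for Rps6ka4, and without it r fell to 0.81 and 0.70. Of the 10, Eif1 (12.39, 12.60 and 12.07 in early, intermediate and late mice, adjusted p = 0.0017), Akap12 (10.29, 10.26 and 9.83, adjusted p = 0.030) and Fcer1g (10.70, 10.51 and 10.12, adjusted p = 0.045) were called between stages, a test that is not independent of their likeness to a gene chosen by stage. Over all clones, 6.16% were called between stages. Another clone of Fcer1g, also above the level of unnamed spots, had 9.25, 9.08 and 8.91. It was not called (limma F test, adjusted p = 0.23) and had r = 0.58 with S100a8.

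**Figure D4:**
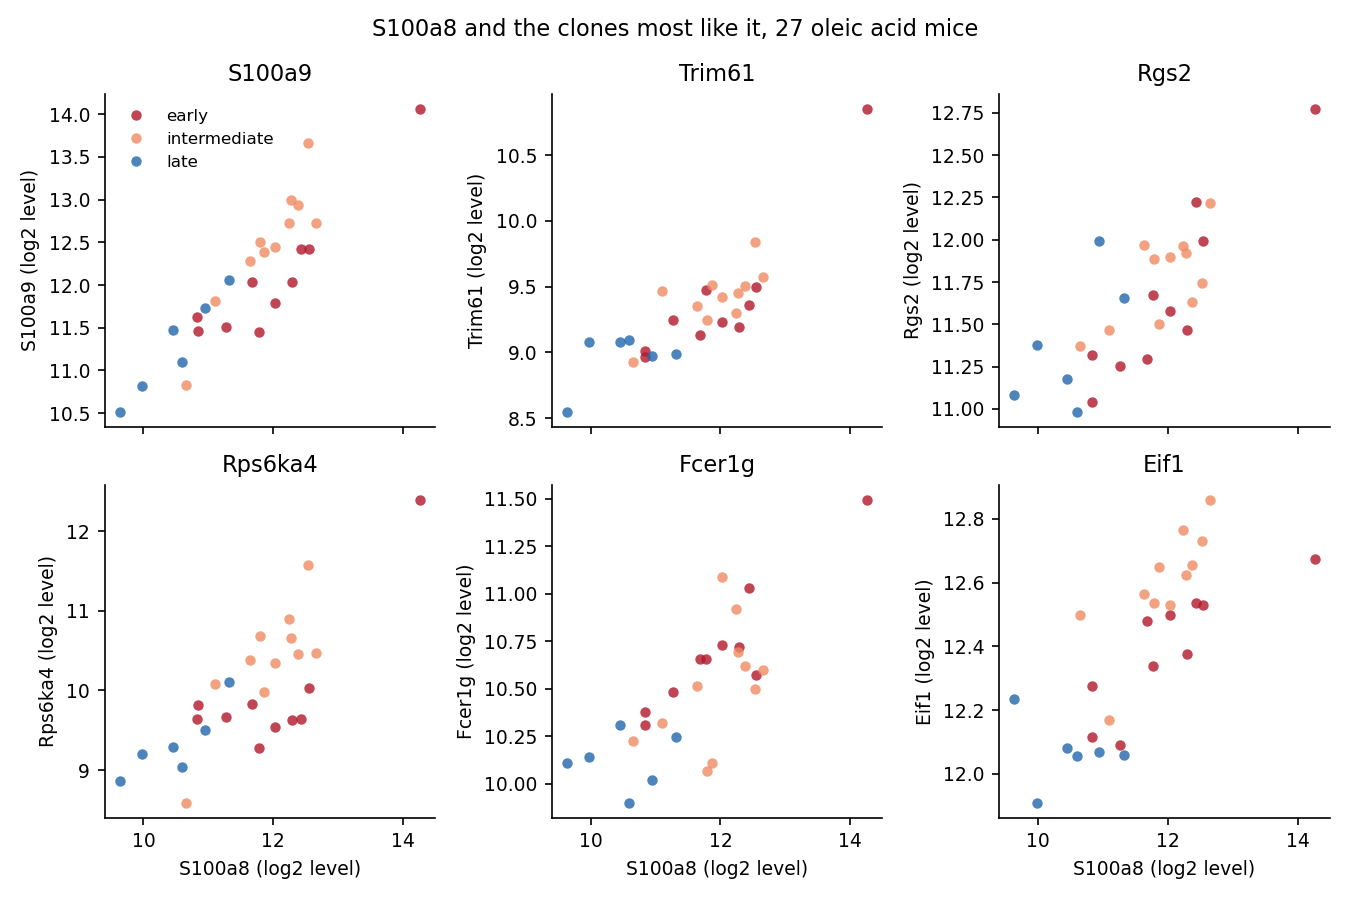
Level of S100a9 and of the 5 genes most like S100a8 (log2, vertical axes) against the level of S100a8 (log2, horizontal axis) in the 27 OA mice, coloured by stage. The early mouse P3L2 lies alone at the right with S100a8 at 14.27, and late mice lie to the left, though in the panel of Rgs2 the late mouse P6L1 lies high, at 11.99.

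S100a8 is a neutrophil marker, so other neutrophil genes were set beside it. Of 28 symbols of granule and secreted proteins 8 were on the array, 5 of them above the level of unnamed spots. None of the 8 was called between stages, where 6.16% of all clones were, so no call in so short a list says little. Apart from S100a9 none of them correlated with S100a8 above 0.5: the granule protein Lcn2 had r = -0.03, Ltf -0.004, Camp 0.37 and Cd177 -0.13. Their summed level without S100a9 had medians of 11.95, 11.83 and 11.82 in early, intermediate and late mice, with ranges of 11.57 to 12.18, 11.61 to 12.08 and 11.77 to 11.87. Prtn3, a primary granule protease, was at 6.71, 6.66 and 6.59, and Prtn3, Ltf and Camp did not lie above the level of unnamed spots. None of 12 surface and oxidase genes, 3 of them above that level, was called between stages, beside the same 6.16%. Of the 12, 3 correlated with S100a8 above 0.5, namely Alox5ap (0.75) and, not above that level, Il1b (0.77) and Padi4 (0.62). In other cell type lists, 4 of 13 pan-leukocyte, 2 of 15 monocyte and macrophage, 1 of 15 T cell and 1 of 3 alveolar epithelial clones exceeded 0.5. No B cell, red cell or endothelial clone did, and the share over all clones was not counted. The summed level of the 12 ranged from 11.94 to 12.61 in early, 11.86 to 12.26 in intermediate and 11.90 to 12.18 in late mice. P3L2 was the highest of the 27 mice in both sums, at 12.18 and 12.61. It was also the highest in the sum of pan-leukocyte genes, at 13.59, and ranked 7 to 21 in the sums of the other cell types. What part neutrophil number had in the level of S100a8 was not tested.

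Against serum, 4 of the 8 granule clones were called higher in OA mice and 1 lower, where 34.3% and 27.3% of all clones were, with Chi3l3 at 2.62, Stfa3 at 0.70 and Cd177 at 0.61 higher and Lcn2, which sequesters bacterial iron carriers, at -1.15 ± 0.31 (SE, limma adjusted p = 0.0018). Chi3l3 was counted in the list of monocyte and macrophage genes as well, so its difference is not particular to neutrophil genes. Of the 12 surface and oxidase genes 3 were called higher and 5 lower, among them the oxidase subunit Ncf4 (-0.66). Cybb (-0.56), Itgam (-0.68) and, in the other direction, Il1r2 (0.59) were called too but did not lie above the level of unnamed spots. None of the 3 genes called higher lay above that level. The median over each list was 0.23 and -0.05.

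Lists of other cell types were counted in the same way, beside the 6.16% of all clones called between stages (470 clones, 115 of them highest early). Of 13 pan-leukocyte clones 4 were called between stages, all highest early (Lcp1, Ptprc and 1 clone each of Cd52 and Fcer1g), and of 14 B cell clones 6, also highest early, such as a clone of Ms4a1 at 8.18, 7.10 and 7.82. Of 15 T cell clones 2 were called (Cd3g highest early, Thy1 highest late), and none of 15 monocyte and macrophage or of 20 red cell clones. Alveolar epithelium had 1 of 3 (Slc34a2, highest early) and endothelium 1 of 8 (Tek, highest early). The summed level of each list correlated with that of S100a8 at r = 0.47 for pan-leukocyte, -0.07 for B cell, 0.27 for T cell, 0.02 for monocyte and macrophage, -0.02 for red cell, 0.27 for alveolar epithelial and 0.14 for endothelial genes.

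Receptors, partners and regulators of S100 proteins were counted in the same way, beside the 6.16% of all clones called between stages. Of 8 clones of S100 receptors and their signalling none was called. Bsg, a receptor of S100a9, had means of 11.43, 11.65 and 11.90 in early, intermediate and late mice, and Myd88, the adaptor of Tlr4, had an OA minus serum difference of -0.64 ± 0.09 (SE, limma adjusted p = 3.2e-07). In all, 1 receptor clone was called higher and 2 lower in OA mice, where 34.3% and 27.3% of all clones were. Myd88 was among the 5 of 8 receptor clones that did not lie above the level of unnamed spots. Of 17 clones of S100 binding partners 1 was called between stages, the annexin Anxa6, at 10.97, 10.65 and 11.25 (adjusted p = 0.030). Against serum 5 partners were called higher and 5 lower, shares near the 34.3% and 27.3% of all clones. Vim, an intermediate filament protein, was higher by 1.66, and Anxa2, the partner of S100a10, stood at -0.59 while S100a10 itself stood at -0.01.

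Of 12 clones of transcription factors and cytokines that act upstream of S100a8, none was called between stages, where 6.16% of all clones were. Against serum 1 was called higher (Il10, 0.39, not above the level of unnamed spots) and 5 lower, where 34.3% and 27.3% of all clones were. Of the 4 clones of Stat3, 3 were called lower (-0.73, -0.58 and -0.41) and the other stood at 0.09 (adjusted p = 0.52, limma), with Cebpa, a C/EBP factor of myeloid cells, at -0.47. Il1b, an inducer of S100a8, had means of 8.62, 9.07 and 8.23 in early, intermediate and late mice, highest in the same stage as S100a9, but was not called (adjusted p = 0.20) and did not lie above the level of unnamed spots.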

How the data were processed

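RNA of 35 mouse lungs was labelled with 33P and hybridized to nylon cDNA microarrays. The authors deposited for each array the intensity of 9984 spots, quantified with Bzscan2, and a quality score of 0 or 1 whose rule is not given in the sources used here. They also deposited a table of log2 values, quantile-normalized by the authors, with 51 OA columns and 5 serum columns that pool arrays and were not used. The number of mice limits the precision, above all the 1 or 2 serum mice at each time.

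Courses in OA mice used the table. OA and serum were compared on the image signal at constant diameter (floor 1, log2, quantile normalization over 60 arrays), the joint scale. Both are separate normalizations, and tests were run within each. Arrays of a mouse were averaged. In R 4.3.3 with limma 3.58.1 (files read with jsonlite 2.0.0), moderated F tests compared 3 stages and 6 time points, and OA was compared with serum by contrasts between treatment-by-time groups of a joint fit, with Benjamini-Hochberg adjustment at 5% over 7625 named clones. Spots without a gene name (2159) and controls (200) were left out of tests. The fits were tested on simulated data. OA replicates are separate mice. Mice were grouped by the labels. A serum label covers all arrays of its time, each array was taken as 1 mouse, and the 2 serum arrays at 1.5 hours count as 1 mouse, as in the study's scheme.

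The text names all S100 clones and the 10 genes most correlated with S100a8. The plan was to name up to 4 called members of smallest adjusted p from each of 12 gene lists. The text does not follow this plan throughout, so the list genes named are not always those of smallest adjusted p. Further list genes were named after their values were seen. Members and lists were chosen with earlier results of these data known. Promoters came from RefSeq (6 of 7 genes matched). Alternatives covered quantification, scaling, dim clones, doubtful arrays, lot, array averaging and leaving out each mouse, and those for single time points were chosen after seeing the data.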

Additional observations from a re-analysis of the deposited data

Results flagged for a closer look

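Both S100g clones stood high in the same mouse at 3 hours. In groups of 4 to 10 OA mice, the gap of the most extreme mouse to its neighbour was compared with Dixon's critical value, which chance exceeds in about 5% of groups, and 2 of 36 groups exceeded it. Mouse P8L3 had 10.65 for clone 1 with the nearest mouse at 10.29 (gap 0.575 of the range) and 10.45 for clone 2 with the nearest at 9.88 (gap 0.622 of the range).

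The array at 1.5 hours without a resolved mouse, which entered the comparisons only as an alternative, had S100a8 at 12.005 on the joint scale, above the serum mouse of that time at 11.30 and within the range of the OA mice of that time.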

How the results depend on the processing

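Of the 8 S100 clones tested between stages, 1 was called (S100a5). None was called with the signal at calculated diameter, where 15 of all clones were called, without dim clones (S100a5 is one), or with lot as a block. With median centring, and with arrays kept apart and mouse as a random block, 2 were called (S100a5 and S100a9). Leaving out 1 mouse gave 0 to 2. Between time points the 1 call was lost without dim clones (0), and kept its count of 1 without any single mouse.

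Of the 5 calls against serum, 3 remained at calculated diameter and 1 with median centring, and 4 or 5 when each of 33 mice was left out in turn. The single serum mice at 1.5 and 24 hours could not be left out, since the mean then has no value. Median centring moved the median of all clones from 0.05 to -0.06 and the share of higher among called clones from 55.7% to 43.6%, and 63.2% were higher at calculated diameter. Among clones above the level of unnamed spots, median centring moved the median further, from 0.06 to -0.22. Differences that turned sign with median centring were S100a6 (-0.20 and -0.15), S100a8 (-0.41) and S100a9 (-0.42). At calculated diameter S100a9 (-0.43) and S100a10 (0.26) turned, and with the fitted signal S100a10 (0.050) and S100a5 (-0.15). The cause was not tested. Without 1 mouse, S100a10 ranged from -0.068 to 0.045, turning positive on leaving out each of 7 mice (0.0021, 0.0050, 0.0053, 0.010, 0.021, 0.036 and 0.045), and S100a8 from -0.028 to 0.33, negative only without the lower of the 18 hours serum mice. S100a8 late minus early in serum mice ranged from -0.37 to 0.54 and was negative on leaving out each of 2 mice (-0.020 and -0.37). The 6 calls at single time points became 0 at calculated diameter and 2 without dim clones, and 4 to 7 without 1 mouse.

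Late minus early within serum mice and the stage difference of OA minus serum gave no call among the S100 clones under the alternatives run. No paired analysis was possible because replicate numbers name different mice in each group.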
